A study of Mus musculus with 2 samples.

Results

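Dividing oligodendrocyte precursors are the cells of the oligodendrocyte lineage that were caught copying or separating their chromosomes. Here they were cells of mouse cerebral cortex that carried both precursor and division transcripts, and 994 of 14265 filtered cells met the rule, 5 in an N-PRα-KO library and 989 in a WT library. A filtered cell had at least 300 genes and at most 25% of its UMIs (unique molecules counted) from mitochondrial genes. A cell was a precursor when Lhfpl3, Tnr, Cacng4, Olig1 and Sox10 together made up at least 0.2% of its UMIs, when Mobp, Mog, Mal and Opalin were below 0.15%, and when Col1a1, Col1a2 and Col3a1 were below 0.4%. The dividing cells were selected on these measured values and on the UMIs of 6 division genes: a precursor was dividing when Mki67, Top2a, Cenpf, Birc5, Ube2c and Hmmr gave at least 3 UMIs together. The 4201 other cells of the gate, 58 in the N-PRα-KO library and 4143 in the WT library, are called non-dividing precursors below.

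The N-PRα-KO mice carried Nestin-Cre with Pdgfra flox/flox, so that Cre made under the neural progenitor promoter Nestin deletes Pdgfra in that lineage and in its descendants, while other cells keep the gene. The WT mice were C57BL/6J. In both groups the cortex was dissociated together with its meninges, cells were enriched on magnetic beads against CD140a, and 1 library per genotype was made on the BD Rhapsody system. Age, sex and the number of animals are not given in the labels, and the pipeline version differed between the libraries, so these and any batch cannot be told apart from genotype. With 1 library per genotype no test between conditions was possible, and the 95% intervals given below are exact and cover counting error only.

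Oligodendrocyte precursors are the cycling glia of the brain. They divide in response to growth factors, among them PDGF-A acting through the receptor PDGFRα (CD140a, the product of Pdgfra), and leave the cycle when they commit to becoming myelinating oligodendrocytes. During a division the cell first licenses and copies its DNA, using MCM helicases, PCNA and nucleotide enzymes, and then condenses and separates its chromosomes, using cyclin B with CDK1, the Aurora and Polo kinases and the spindle motors.

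Pdgfra, the gene targeted in the N-PRα-KO mice and the one whose product the sort selects, was detected in every one of the 5 dividing precursors of the N-PRα-KO library. Those cells held 28, 20, 11, 13 and 19 Pdgfra UMIs among 6773, 10440, 10547, 13861 and 17024 UMIs. Together this was 1552 CPM, the level of a gene after scaling every group's UMIs to 1 common total, in dividing precursors of the N-PRα-KO library, against 4440 CPM in those of the WT library, a log2 ratio of -1.52 (-1.83 to -1.22). Per cell, the median share of Pdgfra was 0.112% of UMIs in the N-PRα-KO library, against 0.446% in the WT library, and 2 of the 5 N-PRα-KO cells lay inside the range that holds the middle 90% of WT dividing cells. The level was thus lower but not at 0, and counts summed over a gene do not show whether the deleted part was transcribed. As a measure of background, at least 1 Pdgfra UMI was found in 4.31% of non-dividing N-PRα-KO microglia and 18.6% of non-dividing WT microglia after each cell was thinned to 2000 UMIs. That depth is below the depth of the 5 cells above, so the microglial shares understate the background at their depth.

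Far fewer precursors of any kind were recovered from the N-PRα-KO library. The gate held 63 of its 4196 filtered cells (1.5%, 1.16% to 1.92%), against 5132 of 10069 (51.0%, 50% to 51.9%) in the WT library. Because the beads bind the product of the deleted gene, fewer precursors in the cortex and poorer capture of those present cannot be told apart. The mitochondrial limit removed 4126 of 8336 barcodes in the N-PRα-KO library and 1329 of 11438 in the WT library.

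Within the gate, the dividing share was 7.94% (5 of 63, 2.63% to 17.6%) in the N-PRα-KO library, against 19.3% (989 of 5132, 18.2% to 20.4%) in the WT library. With each cell thinned to 2000 UMIs it was 6.56% (4 of 61, 1.82% to 15.9%) in the N-PRα-KO library, against 18.6% (828 of 4455, 17.5% to 19.8%) in the WT library, with 2 N-PRα-KO and 677 WT cells too shallow to enter. At the limit of 3 division UMIs the counting intervals of the libraries did not overlap in either form. With at least 6 division UMIs the share was 7.94% (5 of 63) in the N-PRα-KO library, against 16.3% in the WT library. That WT value lies inside the N-PRα-KO interval of 2.63% to 17.6%. The N-PRα-KO value rests on 5 cells. A mitochondrial limit of 10% left 11 gated N-PRα-KO cells with none dividing, which allows a share of up to 27.3%, the share that 3 cells would give. Other proliferating cells of the same suspensions also had lower shares in the N-PRα-KO library. Cells with at least 0.2% of UMIs from the interneuron-lineage genes Dlx1, Dlx2, Dlx5 and Dlx6os1 were dividing in 20.4% (30 of 147, 14.2% to 27.8%) in the N-PRα-KO library, against 27.0% (152 of 563, 23.4% to 30.9%) in the WT library, and those intervals overlapped. Microglia, taken as cells with at least 0.5% of UMIs from a list of microglial genes that includes Cx3cr1, P2ry12, Csf1r and C1qa, were dividing in 7.34% (48 of 654, 5.46% to 9.61%) in the N-PRα-KO library, against 20.1% (131 of 653, 17.1% to 23.3%) in the WT library. A lower dividing share was therefore measured in each of these cell classes, and whether the precursors' difference is separate from the other classes' was not tested. Of all filtered cells with at least 3 division UMIs, the precursors made up 1.56% (5 of 321) in the N-PRα-KO library and 57.9% (989 of 1708) in the WT library.

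**Figure D1:**
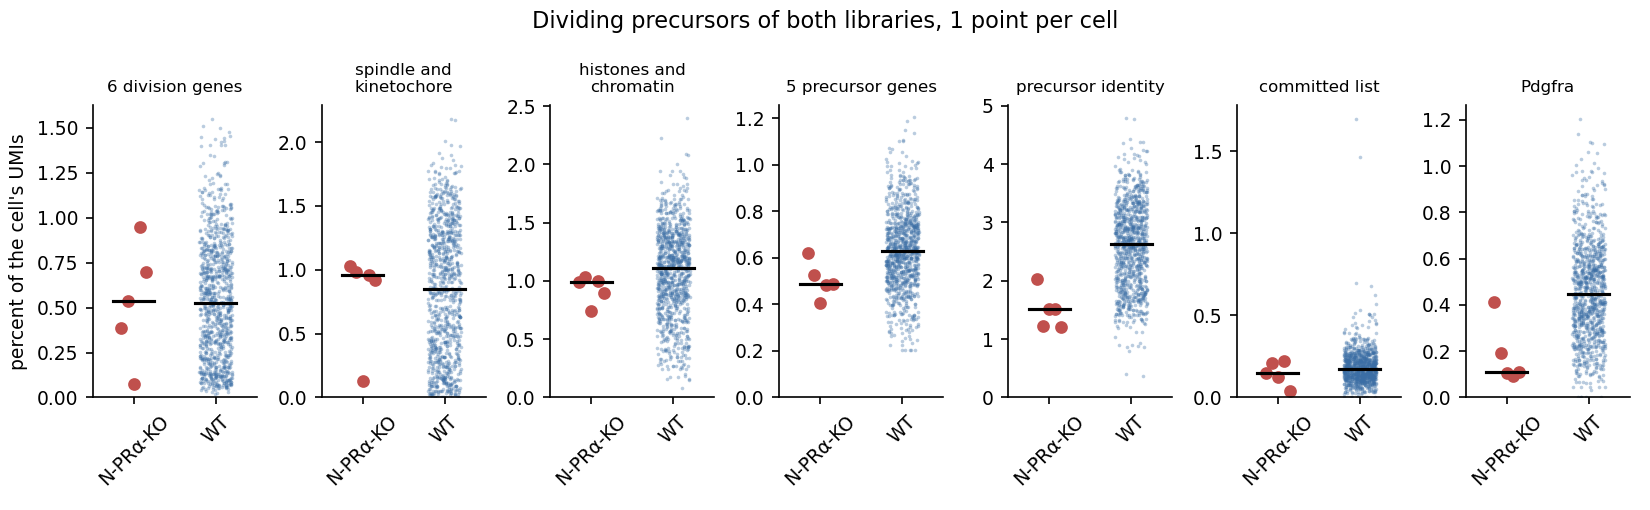
Each point is 1 dividing precursor, with the 5 N-PRα-KO cells left of the 989 WT cells in each panel, the vertical axes give the percent of a cell's UMIs from the named gene or gene list, and bars mark medians. For Pdgfra the N-PRα-KO median of 0.112% lies below the WT median of 0.446%, while the panels of the rule's own genes show values on which both groups were selected.

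The precursor label was checked with genes the rule did not use. At 2000 UMIs per cell, Ptprz1, a receptor phosphatase of precursors, had a UMI in 99.8% of WT dividing precursors, against 99.4% of non-dividing precursors and 25.8% of non-dividing WT microglia. Olig2, the lineage's basic helix-loop-helix factor, had one in 77.3% of dividing precursors, against 80.8% of non-dividing precursors and 5.68% of microglia. All 5 N-PRα-KO dividing cells had UMIs of both genes at that depth. The microglial shares mark the background at this depth, and the shares of both precursor groups were far above it. Astrocytes and Dlx-expressing interneuron progenitors were not part of this check, so it does not separate precursors from them. WT dividing precursors had a median of 4651 UMIs and 2304 genes per cell, against 3126 UMIs and 1744 genes in non-dividing precursors. At equal depth the medians were 1262 genes in dividing and 1253 in non-dividing precursors. The mitochondrial share was close, with medians of 12.1% in dividing and 12.9% in non-dividing precursors. Markers of other cell types were present in both groups and did not all differ in 1 direction. Their sums in dividing and non-dividing WT precursors were 1311 and 1845 CPM for astrocytes and 476 and 667 CPM for interneuron progenitors. They were 260 and 158 CPM for microglia, whose 4 markers at 20 CPM or more were all under 2-fold higher. Mural cells had 80.1 and 60.2 CPM, fibroblasts 37.2 and 34.9 CPM, ependymal cells 32.8 and 42.1 CPM, and endothelium 14.5 and 28.2 CPM. The part of these markers in the differences below was not tested.

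The cells were spread widely over the division score. In the WT library 71, 39 and 40 cells held exactly 3, 4 and 5 division UMIs, 839 held at least 6 and 414 at least 30, with a median of 24. Just outside the limit, 165 precursors held 2 division UMIs and 647 held 1. All 6 genes of the score were detected in 398 of the 989 cells (40.2%), and 41 cells had only 1 of them. In the N-PRα-KO library the 5 cells held 26, 56, 8, 131 and 119 division UMIs in the order of depth given above, and the next cells below the limit were 2 with 2 UMIs and 12 with 1. At the precursor limit, 25 WT dividing cells lay between 0.2% and 0.3%, and 31 cells between 0.1% and 0.2% fell just outside.

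The contrast of dividing with non-dividing precursors in the WT library is a description of what the chosen cells contain, since the rule used it. Of 7361 genes at 20 CPM or more in either group, 437 (5.94%) were at least 2-fold higher and 114 (1.55%) at least 2-fold lower in dividing precursors, and the median log2 ratio was -0.09. The difference was lopsided in size as well, with 165 genes at least 8-fold higher and 4 at least 8-fold lower. Of the 437 higher genes, 139 were on the division lists described next or among the rule's 6 division genes. A gene that reached 20 CPM in dividing precursors alone had to be higher there, so the counts and medians of these lists describe the cells and support nothing.

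Among the lists outside the rule, the spindle genes had the highest median. All 34 listed spindle and kinetochore genes reached 20 CPM and were at least 2-fold higher, with a median log2 ratio of 5.73. Ccnb1, which encodes cyclin B1, the partner of CDK1 at entry into mitosis, had 685 CPM in dividing precursors and 4.69 CPM in non-dividing precursors, a log2 ratio of 7.19. Its kinase Cdk1 had 516 CPM in dividing and 9.66 CPM in non-dividing precursors. Tpx2, a spindle assembly factor that activates Aurora A, had 776 CPM in dividing and 12.2 CPM in non-dividing precursors, and Aurkb, the kinase of the chromosomal passenger complex, had 172 CPM in dividing and 2.66 CPM in non-dividing precursors. Among the 12 highest genes outside the rule were Cdca2 (98.9 CPM in dividing and 0.42 CPM in non-dividing precursors), which recruits a phosphatase to chromatin as mitosis ends, and the motor genes Kif14 (85.1 CPM in dividing and 0.56 CPM in non-dividing precursors) and Kif20a (115 CPM in dividing and 0.98 CPM in non-dividing precursors) of cytokinesis. Each of these 3 genes was under 1 CPM in non-dividing precursors. Cytokinesis and anaphase genes followed, with 10 of 12 measured (14 listed) at least 2-fold higher and a median of 5.22. Prc1, which bundles the midzone microtubules and is another of the 12 highest, had 860.4 CPM in dividing and 9.66 CPM in non-dividing precursors. Pttg1, which encodes securin, was close in both groups at 22.6 CPM in dividing and 22.5 CPM in non-dividing precursors.

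Chromosome and chromatin genes were higher in most cases. Condensin and cohesin genes were at least 2-fold higher in 11 of 14 measured cases (15 listed), with a median of 3.38. The condensin subunits Smc2 (660 CPM in dividing and 55.6 CPM in non-dividing precursors) and Smc4 (1413 CPM in dividing and 113 CPM in non-dividing precursors) differed strongly, and so did the cohesin acetyltransferase Esco2 (178 CPM in dividing and 2.59 CPM in non-dividing precursors). The cohesin core genes split, with Rad21 (log2 ratio 2.23) and Smc1a (1.03) past the 2-fold limit and Smc3 (0.48) and Stag2 (0.18) under it. Histone variants and chromatin factors were higher in 12 of 13 measured cases (19 listed), with a median of 1.65. Hmgb2, a DNA-bending protein, had 2588 CPM in dividing and 107 CPM in non-dividing precursors, the histone variant gene H2afz had 2524 CPM in dividing and 522 CPM in non-dividing precursors, and Ezh2, the Polycomb methyltransferase, had 360 CPM in dividing and 115 CPM in non-dividing precursors.

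Replication and repair lists were also mostly higher. Origin licensing genes were at least 2-fold higher in 11 of 14 measured cases (19 listed, median 1.46), fork genes in 16 of 20 (27 listed, median 1.94) and nucleotide synthesis genes in 7 of 15 (16 listed, median 0.91). The helicase gene Mcm6 had 130 CPM in dividing precursors and 51.8 CPM in non-dividing precursors, and the sliding clamp gene Pcna had 424 CPM in dividing and 119 CPM in non-dividing precursors. Rrm2, the regulated subunit of ribonucleotide reductase, had 400 CPM in dividing and 26.1 CPM in non-dividing precursors, whereas the purine synthesis gene Gart had 43.3 CPM in dividing and 40.2 CPM in non-dividing precursors. Repair genes were higher in 12 of 13 measured cases (15 listed) with a median of 2.72, led by Fancd2 of the Fanconi pathway at 44.5 CPM in dividing and 0.91 CPM in non-dividing precursors.

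The regulators of the cycle split by type. Of 19 measured cyclin and kinase genes (21 listed) 13 were at least 2-fold higher, of 13 transcription factors (16 listed) 6, and of 7 inhibitors (10 listed) 2, with 0 lower in each list. Mitotic and S-phase cyclins were higher, with Ccna2 (cyclin A2) at 1082 CPM in dividing and 14.5 CPM in non-dividing precursors. The D-type cyclins, which link growth factor signals to the cycle, were not: Ccnd1 had 366 CPM in dividing and 450 CPM in non-dividing precursors (log2 ratio -0.30), and Ccnd2 had 172 CPM in dividing and 258 CPM in non-dividing precursors (-0.58). Their kinase gene Cdk4 had 143 CPM in dividing and 134 CPM in non-dividing precursors, with an interval of the log2 ratio from -0.03 to 0.22. Among inhibitors, Cdkn2c, which encodes the CDK4/6 inhibitor p18, had 346 CPM in dividing and 16.6 CPM in non-dividing precursors (4.38), and Cdkn2d, which encodes p19, had 61.7 CPM in dividing and 12.6 CPM in non-dividing precursors (2.29). Cdkn1b, which encodes p27, had 466 CPM in dividing and 318 CPM in non-dividing precursors (0.55). Of the transcription factors of the cycle, Foxm1, an activator of mitotic genes, had 100.3 CPM in dividing and 3.92 CPM in non-dividing precursors, and Mybl1, the gene of A-Myb, had 272 CPM in dividing and 76.3 CPM in non-dividing precursors, while Myc differed by a log2 ratio of 0.05. The cells thus carried more transcript of 2 INK4-type inhibitors and somewhat less of the D cyclins.

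**Figure D2:**
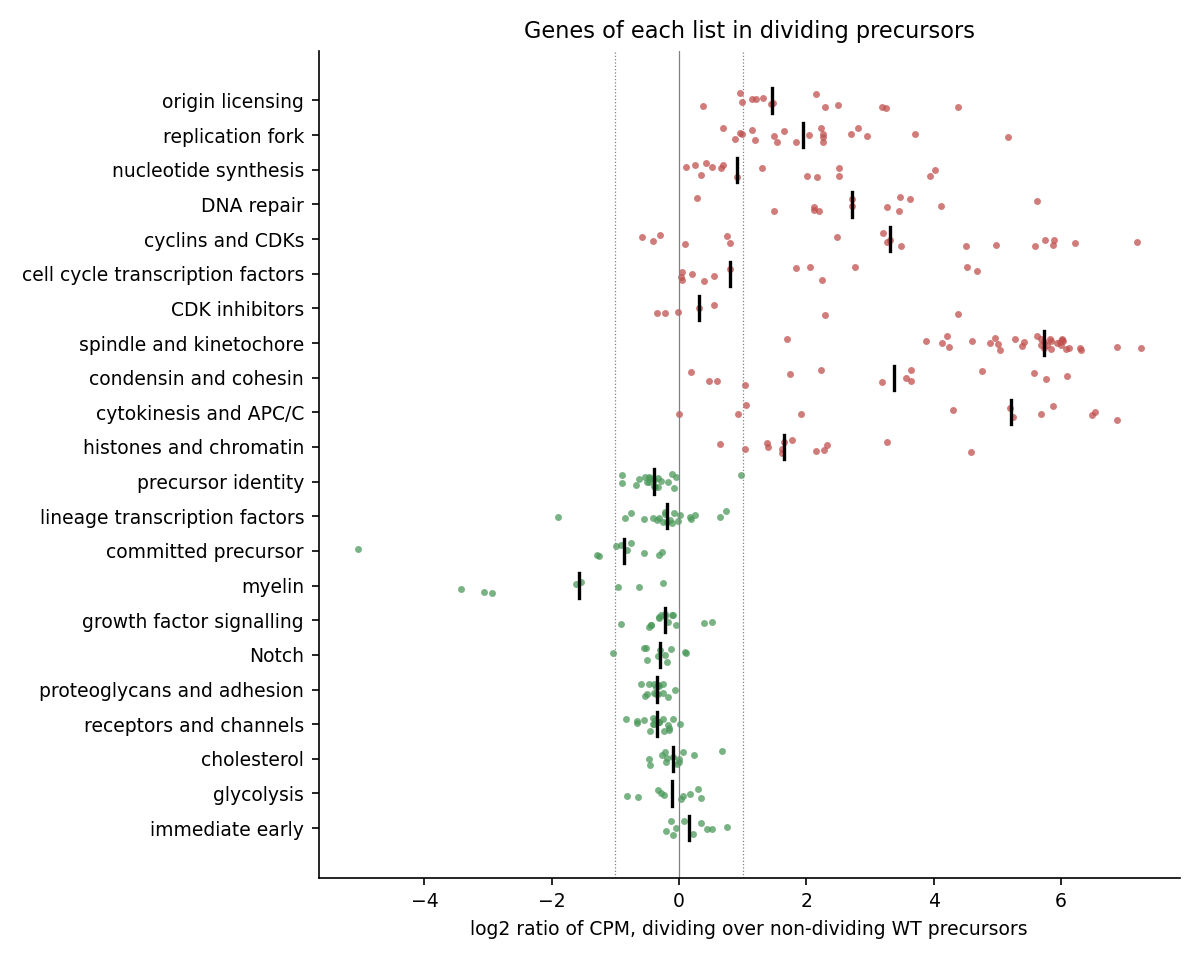
Points give the log2 ratio of CPM, dividing over non-dividing precursors of the WT library, for each gene of a list at 20 CPM or more, and the bar gives the list's median. The medians of the division lists lie right of 0, led by the spindle genes at 5.73, and those of the precursor, committed and myelin lists lie left of it. Single genes of some lists lie on the other side.

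Promoter windows are printed for genes from both ends of the cycle and for the gene that differed most in the other direction, because mitotic and S-phase genes are known to be controlled through different short elements. The mitotic ones often carry a CHR element and CCAAT boxes, which bind the MuvB core complexes and NF-Y, and the S-phase ones often carry E2F sites. The windows run from 250 bases before to 50 bases after the annotated start and come from RefSeq on GRCm38.p6. Capitals mark the letters TTTGAA, here called the CHR motif, the box named for its letters CCAAT, and the E2F motif in the forms TTCCCGC and, as an alternative, TTGGCGC, all searched on both strands. Ccnb2, the gene of cyclin B2, lies at chr9:70421505-70421804 on the minus strand, Ube2c, the gene of the anaphase-promoting complex's E2 enzyme and one of the rule's genes, at chr2:164769679-164769978 on the plus strand, and Ccnb1 at chr13:100786437-100786736 on the minus strand. The MCM helicase genes Mcm5 and Mcm6 lie at chr8:75109259-75109558 on the plus strand and chr1:128359656-128359955 on the minus strand. Enpp6, a gene of newly forming oligodendrocytes, lies at chr8:46986637-46986936 on the plus strand.
Ccnb2: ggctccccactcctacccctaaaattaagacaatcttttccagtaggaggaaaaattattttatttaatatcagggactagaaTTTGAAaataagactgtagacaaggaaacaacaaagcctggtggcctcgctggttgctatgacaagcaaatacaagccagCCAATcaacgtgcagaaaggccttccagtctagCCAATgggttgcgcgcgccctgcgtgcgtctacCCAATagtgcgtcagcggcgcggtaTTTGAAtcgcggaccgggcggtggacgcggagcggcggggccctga
Ube2c: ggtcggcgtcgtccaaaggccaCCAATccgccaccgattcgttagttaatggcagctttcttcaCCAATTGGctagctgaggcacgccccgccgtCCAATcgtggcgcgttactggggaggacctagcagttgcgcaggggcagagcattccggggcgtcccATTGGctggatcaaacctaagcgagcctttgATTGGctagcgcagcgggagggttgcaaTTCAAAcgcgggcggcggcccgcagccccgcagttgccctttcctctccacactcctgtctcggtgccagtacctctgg
Ccnb1: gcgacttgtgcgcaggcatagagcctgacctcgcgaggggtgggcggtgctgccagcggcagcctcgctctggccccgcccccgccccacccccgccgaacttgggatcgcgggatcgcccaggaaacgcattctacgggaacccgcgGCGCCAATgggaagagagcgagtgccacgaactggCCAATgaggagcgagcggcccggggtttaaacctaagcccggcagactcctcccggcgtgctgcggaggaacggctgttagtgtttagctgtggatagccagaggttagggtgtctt
Mcm5: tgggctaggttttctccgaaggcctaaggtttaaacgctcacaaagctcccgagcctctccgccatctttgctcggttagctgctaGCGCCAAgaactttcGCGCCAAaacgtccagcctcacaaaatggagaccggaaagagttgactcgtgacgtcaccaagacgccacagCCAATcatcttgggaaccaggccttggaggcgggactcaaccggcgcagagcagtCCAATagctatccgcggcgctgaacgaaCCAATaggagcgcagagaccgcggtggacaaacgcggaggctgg
Mcm6: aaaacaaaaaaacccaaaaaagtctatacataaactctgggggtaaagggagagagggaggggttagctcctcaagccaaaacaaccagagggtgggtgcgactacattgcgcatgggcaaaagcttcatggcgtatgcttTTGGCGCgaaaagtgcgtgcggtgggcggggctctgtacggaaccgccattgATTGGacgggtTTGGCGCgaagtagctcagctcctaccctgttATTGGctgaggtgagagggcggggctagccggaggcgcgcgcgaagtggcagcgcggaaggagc
Enpp6: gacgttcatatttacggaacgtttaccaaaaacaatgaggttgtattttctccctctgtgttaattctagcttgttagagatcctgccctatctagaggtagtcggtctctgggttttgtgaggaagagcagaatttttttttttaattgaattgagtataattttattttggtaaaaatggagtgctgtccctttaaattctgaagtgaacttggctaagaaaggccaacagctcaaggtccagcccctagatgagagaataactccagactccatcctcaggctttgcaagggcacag

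The Ccnb2 window held 2 CHR motifs, at positions -167 and 5 from the start, and 3 CCAAT boxes. The Ube2c window held 1 CHR motif and 6 CCAAT boxes, of which those at -186 and -183 share bases. The Ccnb1 window held no TTTGAA but 2 CCAAT boxes, 1 of which overlaps an E2F motif. Mcm5 and Mcm6 each held 2 E2F motifs and no TTTGAA, and they too held CCAAT boxes, 3 in Mcm5 and 2 in Mcm6. Enpp6 held none of the motifs. Over the lists, TTTGAA was found in 71.1% of the higher genes of the mitosis lists (27 of 38, with 38 of 43 genes matched to a window) and in 25% of those of the replication lists (7 of 28, with 28 of 34 matched). The E2F motifs were found in 10.5% of the mitosis genes (4 of 38) and 50% of the replication genes (14 of 28), and CCAAT boxes in 63.2% of the mitosis genes (24 of 38) and 64.3% of the replication genes (18 of 28). Among all 27025 genes with a window the shares were 18.1% for TTTGAA, 6.93% for E2F and 37.9% for CCAAT, and among the 5809 of 7361 compared genes that had a window they were 11.5%, 13.6% and 39.3% in the same order. The E2F share of the mitosis genes thus lay between these backgrounds. A match says that the letters are present in the window and not that a factor binds there.

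Levels were followed along the number of division UMIs. WT precursors thinned to 2000 UMIs were split by their division UMIs into 0, 1, 2, 3 to 5, 6 to 10, 11 to 20 and above 20, which gave 3105, 422, 100, 151, 223, 357 and 97 cells. The scoring genes are themselves mitotic, so the mitosis lists had to climb, with summed levels of 492, 697, 1970, 4613, 9536, 15038 and 18892 CPM. The replication lists, whose genes the score did not use, gave 1468, 2435, 4110, 5818, 5852, 4053 and 2778 CPM, highest in the middle bins. Mcm6 had 48.1, 101, 180, 265, 186, 71.4 and 30.9 CPM along the same bins. Ccne2, which encodes cyclin E2 of the G1 to S transition, had 6.90, 19, 65.0, 92.7, 62.8, 18.2 and 0 CPM. Both peaked at 3 to 5 division UMIs, and the 0 of Ccne2 in the last bin allows up to 15.5 CPM. Rrm2 peaked later, with 605 CPM at 6 to 10 UMIs. Ccnb1 had 3.94, 5.92, 60.0, 176, 435, 1008 and 1340 CPM and was highest in the last bin. The dividing cells thus included a part rich in replication transcripts and a part rich in mitotic ones. The bins below 3 are not the rule's non-dividing cells, because the rule counted all UMIs. Of the WT dividing precursors 940 reached 2000 UMIs, and 828 precursors kept at least 3 division UMIs after thinning. The bins of 0, 1 and 2 thus include dividing cells, and do not show whether cells under the rule's limit carried replication transcripts.

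Regulators outside the machinery varied along the bins too. Ccnd1 had 446, 515, 510.0, 437, 397, 331 and 258 CPM, and Ccnd2 had 252, 296, 365, 225, 218, 112 and 67.0 CPM, so both D cyclins were highest at 1 or 2 division UMIs and lowest in the last bin. Cdkn2c ran the other way, with 16.3, 20.1, 75, 179, 329.6, 439.8 and 454 CPM. Pdgfra had 5033, 4814, 4695, 4434, 4179, 4679 and 4985 CPM, with its lowest value in the middle and its first and last bins close together. Sox4, a SoxC factor gene of neural progenitors, had 465, 451, 310.0, 351, 294, 213 and 160 CPM.

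**Figure D3:**
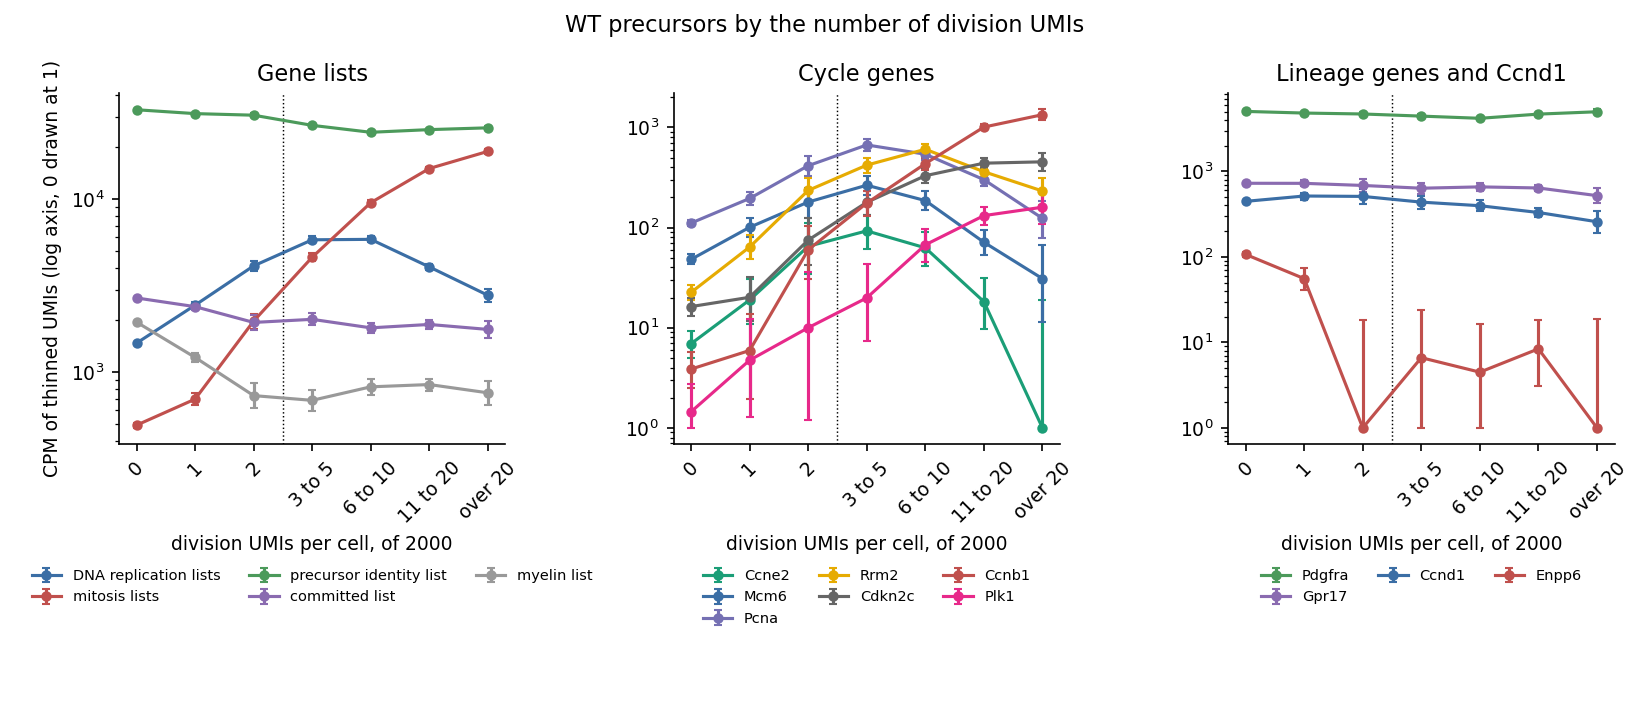
The horizontal axes give bins of division UMIs per WT precursor, low to high, after thinning to 2000 UMIs, and the vertical axes give CPM on a log scale with exact Poisson intervals, where 0 and lower bounds under 1 are drawn at 1. Replication genes such as Mcm6 and Ccne2 are highest at 3 to 5 division UMIs, while Ccnb1 is highest above 20.

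Detection of an early and a late transcript in the same cell was counted for 5 pairs of genes. Among the 940 WT dividing precursors with at least 2000 UMIs, thinned to that depth, Ccne2 was detected in 2.06% (1.03% to 3.66%) of cells with a Ccnb1 UMI and in 14.5% (11.3% to 18.3%) of cells without one. Mcm6 was detected in 7.86% (3.99% to 13.6%) of cells with a UMI of Plk1, the Polo kinase gene, and in 21.8% (18.9% to 24.8%) of cells without. Pcna was detected in 22.6% (14.6% to 32.4%) of cells with a UMI of Cdc20, an activator of the anaphase-promoting complex, and in 42.6% (39.3% to 46.0%) of cells without. These 3 replication transcripts were thus detected at lower shares beside the mitotic one, and with all UMIs used the shares were 9.75% and 26.9% for Ccne2, 20.1% and 37.9% for Mcm6, and 47.7% and 60.5% for Pcna, in cells with and without the mitotic transcript. Rrm2 did not follow, at 40.8% (36.6% to 45.1%) of cells with Ccnb1 and 49.8% (44.8% to 54.7%) of cells without, where the intervals overlapped, and its order turned round with all UMIs, at 64.3% and 54.2%. Cdkn2c was detected in 56.6% (52.2% to 60.8%) of cells with Ccnb1 and 28.8% (24.5% to 33.5%) of cells without, and with all UMIs in 78.9% and 35.3%. Cells of 1 library are not replicates, and no test was made.

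Precursor identity genes were close to the level of non-dividing precursors. Of 20 precursor identity genes, all at 20 CPM or more, 0 passed the 2-fold limit in either direction, against 5.94% higher and 1.55% lower over all genes, which is a count too small to set the list apart, and 19 had ratios below 0, with a list median of -0.39 against -0.09 over all genes. Pdgfra had 4440 CPM in dividing and 4799 CPM in non-dividing precursors (log2 ratio -0.11, -0.13 to -0.09), and its sign turned to 0.08 with the groups matched on total UMIs and was at 0.00 with median-of-ratios scaling. Cspg4, the NG2 proteoglycan gene, had 164 CPM in dividing and 237 CPM in non-dividing precursors, and Ptprz1 had 5641 CPM in dividing and 7857 CPM in non-dividing precursors. Of the precursor genes of the rule, on which both groups were selected, Lhfpl3 stood at 2545 CPM in dividing and 3353 CPM in non-dividing precursors and Sox10, the lineage's master factor, at 667 CPM in dividing and 832 CPM in non-dividing precursors. Sapcd2, a spindle orientation gene, was the 1 identity gene above 0, with a log2 ratio of 0.97. Receptors and channels (0 of 18 past the limit, median -0.35), proteoglycans (0 of 16, median -0.35) and growth factor signalling genes (0 of 15, median -0.22) had medians below 0 too, and these lists share members. CPM are shares of a group's UMIs, and TMM scaling moved the median log2 ratio of all genes to 0.02.

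Of 21 measured lineage transcription factors (26 listed), 1 was at least 2-fold lower and 0 higher, shares near those of all genes. Olig2 had 862 CPM in dividing and 928 CPM in non-dividing precursors, a log2 ratio of -0.11 that turned to 0.01 with TMM scaling. Sox11, another SoxC factor gene (405 CPM in dividing and 259 CPM in non-dividing precursors), was higher, and Sox4 (263 CPM in dividing and 475 CPM in non-dividing precursors) was lower. The 1 factor past the limit was Myrf, the master regulator of myelin genes, at 20.8 CPM in dividing and 77.6 CPM in non-dividing precursors. Notch pathway genes had 1 of 11 past the limit, Hey2, a Notch target, with a log2 ratio of -1.04.

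The lists of commitment and myelination had the lowest medians among the lineage lists. They account for few of the 114 lower genes. Of 10 measured genes of committed precursors (13 listed) 3 were at least 2-fold lower (median -0.86), and of 8 myelin genes (12 listed) 5 were (median -1.58). With levels averaged over cells these medians were -0.54 and -0.86, and with groups matched on total UMIs -1.41 and -2.61. Without cells with 3 or more UMIs of Enpp6, Mbp and Mag, which are members of these lists, they were -0.26 and -0.21. The precursor identity median was then lower, at -0.46, so the order of the lists depended on a small set of cells. Enpp6, a choline phosphodiesterase gene that marks newly forming oligodendrocytes, had 5.54 CPM in dividing precursors and 183 CPM in non-dividing precursors, a log2 ratio of -5.04 (-5.64 to -4.51) and the lowest of the genes ranked. Mag, a myelin adhesion gene, had 8.11 CPM in dividing and 67.8 CPM in non-dividing precursors, and Mbp, the myelin basic protein gene, had 48.3 CPM in dividing and 370.5 CPM in non-dividing precursors. Genes that begin earlier in commitment differed less. Gpr17, a receptor of committed precursors, had 619 CPM in dividing and 746 CPM in non-dividing precursors (-0.27), and Bcas1, a marker of early myelinating cells, had 236 CPM in dividing and 442 CPM in non-dividing precursors (-0.91).

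UMIs of these late genes sat in a small set of cells. Enpp6 reached 3 UMIs in 1 of 989 dividing precursors (0.101%, 0.00256% to 0.562%) and in 97 of 4143 non-dividing precursors (2.34%, 1.90% to 2.85%), and those 97 cells held 97.4% of the group's Enpp6 UMIs. Enpp6, Mbp and Mag together reached 3 UMIs in 8 dividing (0.809%) and 130 non-dividing precursors (3.14%), and the 130 cells held 91.7% of their group's UMIs of these genes. At 10 UMIs the counts were 1 dividing and 96 non-dividing cells. Gpr17 reached 3 UMIs in 45.6% of dividing and 37.9% of non-dividing precursors, and Bcas1 in 15.5% of dividing and 13.5% of non-dividing precursors, at the unequal depths of the groups. At 2000 UMIs per cell the order was the opposite, with a Gpr17 UMI in 64.5% of dividing and 68.9% of non-dividing precursors and a Bcas1 UMI in 32.7% of dividing and 38.4% of non-dividing precursors. No order is read from these shares, and early commitment genes were found in many cells of both groups.

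Dividing precursors were next set beside the other dividing cells of the WT library, which are 152 cells of the Dlx class and 131 microglia. Since each set was chosen for its division UMIs, their levels of the rule's genes say nothing new. Against dividing Dlx cells, 5 of 192 division genes were at least 2-fold higher in dividing precursors and 40 lower, with a median log2 ratio of -0.43, while over all 7326 genes 21.8% were higher and 8.46% lower with a median of 0.08. The D cyclins differed in opposite directions. Ccnd1 had 366 CPM in dividing precursors and 56.2 CPM in dividing Dlx cells (log2 ratio 2.70), and Ccnd2 had 172 CPM in dividing precursors and 5583 CPM in dividing Dlx cells (-5.02). The same held for cells outside division, where Ccnd1 had 450 CPM in non-dividing precursors and 21.5 CPM in non-dividing Dlx cells, and Ccnd2 had 258 CPM in non-dividing precursors and 3634 CPM in non-dividing Dlx cells. Cdk6, a kinase partner of the D cyclins, had 43.9 CPM in dividing precursors and 267 CPM in dividing Dlx cells (-2.60), and Mybl1 had 272 CPM in dividing precursors and 61.8 CPM in dividing Dlx cells (2.14). Of 34 spindle genes 0 passed the limit either way (median -0.14), and 7 of 17 licensing genes (median -0.88) and 7 of 24 fork genes (median -0.81) were lower. Each of these 7 licensing and 7 fork genes was also lower in non-dividing precursors than in non-dividing Dlx cells. Mcm6 had 51.8 and 126 CPM there and Pcna 119 and 290 CPM, while Dna2 of the fork list was close at 6.65 and 7.15 CPM. Their order was thus not particular to the dividing cells.

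Against dividing microglia, 13 of 185 division genes were at least 2-fold higher in dividing precursors and 7 lower, with a median of 0.17. Over all 7754 genes 30.2% were higher and 15.8% lower, with a median of 0.37. Cdkn1a, which encodes the CDK inhibitor p21, had 5.54 CPM in dividing precursors and 231 CPM in dividing microglia (-5.38). The antiproliferative gene Btg2 had 22.6 CPM in dividing precursors and 684 CPM in dividing microglia. In the other direction Mybl1 had 272 CPM in dividing precursors and 52.0 CPM in dividing microglia (2.39), and Ccnd1 had 366 CPM in dividing precursors and 176 CPM in dividing microglia (1.06). Mybl1 and Ccnd1 were therefore higher in dividing precursors than in both other classes, and spindle genes differed little, with a median of 0.27 over 34 genes. The order of these 4 genes was the same outside division. In non-dividing precursors and non-dividing microglia, Cdkn1a had 3.43 and 126 CPM, Btg2 26.2 and 939 CPM, Mybl1 76.3 and 6.65 CPM, and Ccnd1 450 and 297 CPM. These differences are thus not particular to the dividing cells. Each class is a single set of cells from 1 library, and none of these differences was tested.

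**Figure D4:**
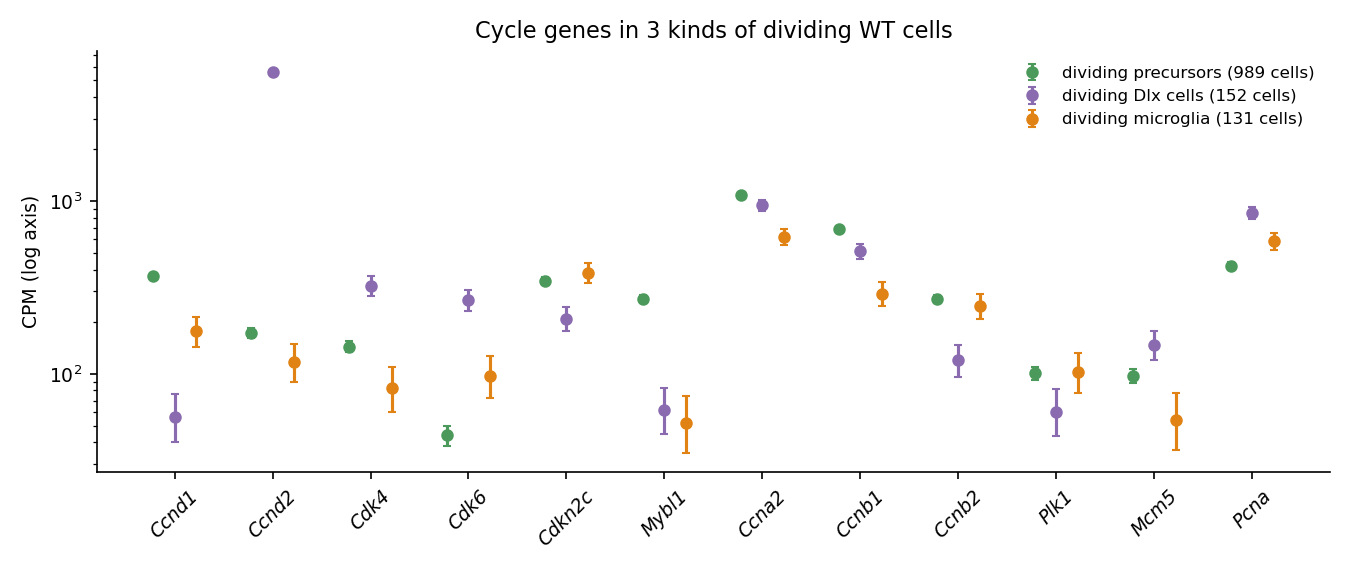
Points give CPM on a log axis for cycle genes in 989 dividing precursors, 152 dividing Dlx cells and 131 dividing microglia of the WT library, with exact Poisson intervals. Ccnd1 and Mybl1 are highest in the precursors, while Ccnd2 is at 5583 CPM in Dlx cells, against 172 CPM in precursors.

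The 5 dividing precursors of the N-PRα-KO library held 58645 UMIs together, against 5053344 in those of the WT library, with medians of 10547 UMIs per N-PRα-KO cell and 4651 per WT cell. Both groups were selected on the 6 division genes, whose level is therefore no finding. These summed to 5798 CPM in N-PRα-KO cells and 5618 CPM in WT cells, spindle genes to 8117 CPM in N-PRα-KO cells and 8876 CPM in WT cells (log2 ratio -0.13), and cyclins and their kinases to 5491 CPM in N-PRα-KO cells and 5049 CPM in WT cells (0.12). Mki67, the proliferation antigen, gave 12, 15, 4, 29 and 36 UMIs in the 5 cells, and Ccnb1 gave 7, 6, 0, 16 and 19. Replication lists had lower sums in the N-PRα-KO cells. Pcna gave 0, 1, 0, 0 and 2 UMIs, and Rrm2 gave 0, 4, 0, 0 and 0. Fork genes summed to 869.6 CPM in N-PRα-KO cells and 1793 CPM in WT cells (-1.04), and licensing genes to 546 CPM in N-PRα-KO cells and 1036 CPM in WT cells (-0.92). Repair genes had a log2 ratio of -0.71, cycle transcription factors -0.78 and nucleotide synthesis genes -0.74. In non-dividing precursors the ratios were also below 0, at -0.35 for fork, -0.39 for licensing and -0.55 for nucleotide synthesis genes. They were -0.81 for cycle transcription factors and -0.35 (-0.85 to 0.11) for repair genes. Lower sums of these lists were thus not particular to the dividing cells, and 5 cells cannot show how a population is spread over the cycle.

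Precursor identity genes had a lower sum in those 5 cells. The identity list summed to 14306 CPM in N-PRα-KO cells and 25406 CPM in WT cells (-0.83), and the same list in non-dividing precursors had a log2 ratio of -0.55. Of the 1248 genes with at least 10 UMIs in both libraries' dividing precursors, 264 (21.2%) were at least 2-fold higher and 39 (3.12%) lower in the N-PRα-KO library, a split that the minimum favours because the small group must be high to pass. Ptprz1 had 2831 CPM in N-PRα-KO cells and 5641 CPM in WT cells (-0.99), and Sox8, a relative of Sox10, had 171 CPM in N-PRα-KO cells and 712 CPM in WT cells (-2.06). Olig2 had 870.0 CPM in N-PRα-KO cells and 862 CPM in WT cells (0.01), and Cspg4 had 443 CPM in N-PRα-KO cells and 164 CPM in WT cells (1.43). Of 15 identity genes with enough UMIs in both libraries, 5 were at least 2-fold lower and 1, Cspg4, higher, with a median of -0.79, whereas Olig2 and Sox8 belong to the list of lineage factors. Enpp6 had 0 UMIs in the 5 N-PRα-KO dividing cells, which allows up to 51.2 CPM, while 2 of the 58 non-dividing cells of that library carried all 228 of its Enpp6 UMIs.

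Markers of several other cell types were higher in the N-PRα-KO cells, and others were not. In dividing precursors the log2 ratio was 1.12 for microglial markers and 1.86 for ependymal markers, 0.16 (-0.16 to 0.47) for astrocyte markers and -0.90 (-1.74 to -0.17) for interneuron progenitor markers. In dividing precursors the 5 mural markers summed to 529 CPM in N-PRα-KO cells and 80.1 CPM in WT cells (log2 ratio 2.72), and in non-dividing precursors the ratio was 3.61. All 5 N-PRα-KO dividing cells had a mural UMI, with shares of 0.0411% to 0.0591%, against 21.8% of WT dividing cells, and 0 of the 5 lay in the middle 90% of WT cells. The 5 fibroblast markers had ratios of 2.57 in dividing and 2.39 in non-dividing precursors, with a UMI in all 5 N-PRα-KO dividing cells and in 16.2% of WT ones. The 5 endothelial markers had ratios of 2.82 in dividing and 2.90 in non-dividing precursors, with a UMI in 2 of the 5 N-PRα-KO cells, against 6.67% of WT cells. These shares of cells with a UMI were taken at unequal depth, with medians of 10547 UMIs per N-PRα-KO dividing cell and 4651 per WT one. Deeper cells show a UMI more often, and the part of depth was not tested. Immediate early genes summed to 4382 CPM in N-PRα-KO cells and 1814 CPM in WT cells in dividing precursors (1.27), and 1 cell gave 139 of the 257 UMIs. Glycolysis genes summed to 2234 CPM in N-PRα-KO cells and 1135 CPM in WT cells (0.98), and cholesterol synthesis genes to 853 CPM in N-PRα-KO cells and 1893 CPM in WT cells (-1.15), while in non-dividing precursors the ratios were 0.95 for glycolysis and -0.23 for cholesterol synthesis. The part of other cells' RNA in these differences was not tested.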

How the data were processed

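Single-cell RNA-seq libraries of 1 N-PRα-KO and 1 WT cortex suspension were used, and the deposited values are raw counts of UMIs per cell and gene. They came from the authors' runs of BD's Rhapsody WTA pipeline, 1.10 (N-PRα-KO) and 1.10.1 (WT), against GRCm38 and GENCODE M19, per the file headers. For the aligner, no name was given in the sources used here. The libraries held 41982217 and 43459947 UMIs over 8336 and 11438 barcodes, and 105 cell numbers occur in both, 0 of them among gated precursors.

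Counts were summed per group of cells and divided by the group's total (python 3.11.15, scipy 1.17.1). Ratios carry exact conditional 95% intervals, CPM exact Poisson and shares exact Clopper-Pearson intervals. They cover counting error only, since cells of 1 library are not replicates. Genes at 20 CPM or more in either group were compared, and 2-fold was the limit for counting a gene. Single ratios below 3 UMIs in a group were taken against 3 UMIs. Where a count was 0, the level or share said to be allowed is that of a count of 3, which is not an exact limit. Levels were not compared between genes. The ratio step was tested on simulated data. No cell was removed as a doublet, and removing Scrublet calls (scanpy 1.11.5; 0 of 5 N-PRα-KO and 18 of 989 WT dividing precursors) was an alternative, as were TMM factors (edgeR 4.0.16). Named were the genes of the rule, Pdgfra, the 12 highest and 12 lowest genes at 50 CPM or more, up to 6 genes per list by size of ratio, and textbook members of lists. The members and lists were chosen with earlier results of these data known.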

Additional observations from a re-analysis of the deposited data

Results flagged for a closer look

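Microglial marker genes, summed, differed in opposite directions between dividing and non-dividing precursors of the libraries. In the N-PRα-KO library they made up 563 CPM of dividing and 866 CPM of non-dividing precursors, a log2 ratio of -0.62 (-1.19 to -0.10). In the WT library they made up 260 CPM and 158 CPM, a ratio of 0.71 (0.61 to 0.81). The difference between the libraries was not tested, and the N-PRα-KO value rests on 5 dividing cells.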

How the results depend on the processing

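The dividing share was 7.94% in the N-PRα-KO library, against 19.3% in the WT library. With at least 6 division UMIs it was 7.94% (5 of 63) in the N-PRα-KO library, against 16.3% in the WT library. With at least 10 it was 6.35% (4 of 63) in the N-PRα-KO library, against 14.0% in the WT library. A mitochondrial limit of 10% gave 0% in the N-PRα-KO library, against 21.2% in the WT library. The 437 higher and 114 lower genes became 869 and 860 with no minimum beyond 10 UMIs, and 159 and 22 at 100 CPM or more. Lower genes numbered 73 with TMM factors, 72 with median-of-ratios factors, 196 with groups matched on total UMIs and 367 with the 10% mitochondrial limit. The cause was not tested, apart from the number of genes admitted by each minimum. Without cells with 3 or more UMIs of Enpp6, Mbp and Mag, an alternative chosen after seeing the data, the ratios of Enpp6, Mag and Cldn11, a tight junction gene of myelin, turned to 0.24, 0.094 and 1.98, which for Enpp6 and Mag follows from how the cells were removed. No other named gene past the 2-fold limit changed sign in the alternatives run. Of 349 list medians under these alternatives, 284 moved by no more than the median half-width of their single genes' counting intervals. No interval was computed for a median itself. Signs changed without passing 2-fold in 12 of the 349, among them the cholesterol list at 0.02 with TMM. The precursor identity median stayed between -0.48 and -0.27. The committed median ranged from -1.41 to -0.26 and the myelin median from -2.61 to -0.21. Each was highest without the cells with 3 or more UMIs of Enpp6, Mbp and Mag. No paired analysis was possible because there was 1 library per genotype, and for the same reason no replicate could be left out. The N-PRα-KO values rest on 5 cells with 58645 UMIs in 1 library.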
